A study of Homo sapiens and Mus musculus with 21 samples.

Results

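Medium peaks were defined here as the regions of at least 200 bp and under 2000 bp in a DHX15 RNA immunoprecipitation (RIP-seq) peak list that lie wholly inside the span of at least 1 RefSeq gene, and 1538 of the 4499 listed peaks met both conditions. A further 118 peaks of such lengths lay in no gene span and were not members. The medium peaks were spread over 1405 genes, of which 1255 are protein-coding, 143 are lncRNA genes and 7 are pseudogenes. Inside gene spans there were also 1672 short peaks of under 200 bp and 940 long peaks of 2000 bp or more, and any peak of the list touched 3223 genes in this way.

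The series studied the RNA helicase DHX15 in CUTLL1, a human cell line derived from T-cell acute lymphoblastic leukemia. The RIP experiment comprised 2 libraries precipitated with an antibody to DHX15, 1 with IgG and 1 input library, and the authors deposited a single peak list for them. Poly(A)+ RNA-seq compared cells infected with lentivirus carrying the hairpin shDHX15-1 (3 libraries) or shDHX15-2 (3 libraries) with cells carrying shGFP (3 libraries). A separate poly(A)+ experiment compared ciclopirox (3 libraries) with its solvent DMSO (3 libraries). All of these groups are the same line, and no label ties the replicate libraries to separate cultures. The p-values below therefore set the difference between groups against the scatter of these libraries, and that scatter may be technical only. The peak list has no value per library, so no peak has a replicate check. The mouse thymus samples were not analysed here.

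DHX15, which holds no peak of any length in the list, had 17.1, 17.3 and 16.5 RPKM (reads scaled to gene length and library size) with shDHX15-1 and 16.1, 16.5 and 16.8 RPKM with shDHX15-2, against 42.8, 44.1 and 43.2 RPKM with shGFP. It fell by 1.30 and 1.34 on the log2(RPKM + 1) scale (limma, p adjusted over all genes tested = 1.06e-09 and 1.83e-09), and by 0.74 with ciclopirox (adjusted p = 8.7e-05). Library totals were 59702150 to 62633707 reads in the hairpin experiment and 32451469 to 37177509 reads in listed genes in the ciclopirox experiment. Of 12 T-cell markers, 11 were listed with values (CD3D averaged 269.5, 302.7 and 257.4 RPKM with shDHX15-1, shDHX15-2 and shGFP) and PTCRA was not listed. Of 8 markers of other blood cells, CD79A (34.7, 58.6 and 24.4 RPKM) and CD68 (6.42, 4.25 and 2.35 RPKM) had values in the same order of groups and the others were not listed, and their part in the results was not tested. Hairpin values below are RPKM and ciclopirox values are counts normalised by the authors, and changes are differences on the log2(value + 1) scale. Replicate libraries differed by more than sampling noise, and DMSO replicate 1 stood apart from the other DMSO libraries (chi-square per degree of freedom 37.6 and 38.4, against 3.42 between the other two). In bulk libraries fewer cells of a type and less RNA per cell cannot be told apart. Among the named genes, MFSD2A and NPRL2 lost a ciclopirox call without that library (limma adjusted p = 0.0805 and 0.0944).

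DHX15 is a DEAH-box RNA helicase that takes apart the intron-lariat spliceosome after splicing and also acts in ribosome biogenesis, and it is switched on by partner proteins that carry a G-patch motif. RIP recovers RNA that stays with a protein in a cell lysate, so a peak marks a stretch of RNA enriched in the precipitate and not a crosslinked contact. Ciclopirox is an antifungal that chelates iron and inhibits iron-dependent enzymes.

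The first 4 sequences show medium peaks at annotated transcript starts, and a set of mature miRNAs shows the small RNAs they enclose. Each start window is the RefSeq sequence (GRCh38.p14) of 250 bases before and 50 bases from an annotated transcript start, written 5′ to 3′ on the gene's strand. Capitals mark the bases from the annotated start onward that lie inside the medium peak, 50 in each window. In RHBDL1, which encodes a rhomboid-like protein (chr16:675814-676113, plus strand), in MIF4GD, which encodes a MIF4G-domain protein (chr17:75270673-75270972, minus strand), and in EZH2, the catalytic subunit of Polycomb repressive complex 2 (chr7:148883436-148883735, minus strand), all 300 bases lay inside the peak. These 3 starts are alternative ones that lie 393, 570 and 806 bases into the gene span for RHBDL1, MIF4GD and EZH2. Since members lie wholly inside a gene span, a peak can cover such a window only at an internal start, so the coverage follows in part from how members were chosen. In DUT-AS1, a lncRNA gene (chr15:48331807-48332106, minus strand), the annotated start is the gene start and the first base of the peak was transcript base 1.
RHBDL1: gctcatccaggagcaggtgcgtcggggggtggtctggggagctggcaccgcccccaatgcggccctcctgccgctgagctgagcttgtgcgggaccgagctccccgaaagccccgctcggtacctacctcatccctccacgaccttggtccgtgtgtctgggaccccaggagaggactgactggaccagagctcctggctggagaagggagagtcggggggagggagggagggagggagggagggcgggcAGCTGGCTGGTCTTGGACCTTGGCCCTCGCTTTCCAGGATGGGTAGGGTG
MIF4GD: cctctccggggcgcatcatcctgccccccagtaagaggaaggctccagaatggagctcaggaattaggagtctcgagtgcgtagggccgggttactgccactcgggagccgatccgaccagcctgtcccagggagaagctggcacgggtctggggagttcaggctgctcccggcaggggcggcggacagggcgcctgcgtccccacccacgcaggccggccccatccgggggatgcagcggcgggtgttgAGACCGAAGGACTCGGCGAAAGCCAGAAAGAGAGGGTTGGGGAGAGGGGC
EZH2: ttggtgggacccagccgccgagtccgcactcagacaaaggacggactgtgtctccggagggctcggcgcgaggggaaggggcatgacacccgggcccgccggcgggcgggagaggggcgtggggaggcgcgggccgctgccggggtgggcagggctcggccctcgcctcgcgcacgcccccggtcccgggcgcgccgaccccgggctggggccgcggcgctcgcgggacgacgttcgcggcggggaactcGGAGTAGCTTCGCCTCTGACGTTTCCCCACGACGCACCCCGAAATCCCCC
DUT-AS1: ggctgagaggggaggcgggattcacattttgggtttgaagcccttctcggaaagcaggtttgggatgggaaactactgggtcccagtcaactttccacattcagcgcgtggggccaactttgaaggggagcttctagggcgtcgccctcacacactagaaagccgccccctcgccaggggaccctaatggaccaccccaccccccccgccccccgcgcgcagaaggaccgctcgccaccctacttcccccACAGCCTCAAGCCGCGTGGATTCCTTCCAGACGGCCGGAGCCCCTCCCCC

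The RHBDL1 peak (chr16:675740-676335) had a fold enrichment of 3.35, the MIF4GD peak (chr17:75270304-75271125) of 2.19, the EZH2 peak (chr7:148883271-148884200) of 2.12 and the DUT-AS1 peak (chr15:48331621-48331856) of 3.0. Fold enrichment and false discovery rate (FDR) are the authors' values for each peak throughout, and the libraries behind the ratio are not stated in the sources used here. The GC content of the printed windows was 68.3% for RHBDL1, 68.0% for MIF4GD, 77.0% for EZH2 and 64.3% for DUT-AS1.

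A medium peak on the gene's strand overlapped a start window in 143 cases, at 145 genes, and in 66 cases the peak began within the first 50 transcribed bases. Windows covered over at least 250 of their 300 bases numbered 52, under 47 peaks, and their median GC content was 68.5%, against 64.0% in 4425 windows of tested genes that lie in their gene span over at least 250 bases and could have been covered, 64.7% in all 13162 windows of the genes tested in the hairpin experiment and 58.7% in all 35116 windows. The letters GGGCGG, the core of the GC box bound by SP-family factors, were present on either strand in 46 covered windows (88.5%), against 58.5% of those that could have been covered, 66.4% of the windows of tested genes and 45.0% of all windows. Splice-donor-like letters were counted on the gene's strand only. GTGAG was found in 32.7% of covered windows, against 35.2% of those that could have been covered, 30.3% of the windows of tested genes and 29.9% of all windows, and GTAAG in 7.69%, against 13.9%, 11.5% and 13.1% of the same sets. A match describes the letters in the window only. The first listed window of 1016 medium-peak genes had a median GC content of 66.0%, against 64.7% in 7025 tested genes without any peak.

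The second set of sequences is a selection of mature miRNAs whose hairpins were wholly enclosed by a medium peak on the same strand, shown because they identify these small RNAs by their seeds. Sequences are from RefSeq (GRCh38.p14), and capitals mark the seed, bases 2 to 8.
hsa-miR-26b-5p: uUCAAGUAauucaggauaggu
hsa-miR-26b-3p: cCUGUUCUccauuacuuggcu
hsa-miR-1233-5p: aGUGGGAGgccagggcacggca
hsa-miR-1233-3p: uGAGCCCUguccucccgcag
hsa-miR-1908-5p: cGGCGGGGacggcgauugguc
hsa-miR-1908-3p: cCGGCCGCcggcuccgccccg
hsa-miR-378i: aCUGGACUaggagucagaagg
hsa-miR-10523-5p: gACAAUGAugagaagaccugagga

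No seed was shared between these miRNAs, apart from miR-1233, which 2 hairpins in the near-identical genes GOLGA8A and GOLGA8B encode with the same mature sequences. In all, 15 medium peaks enclosed 10 miRNA hairpins, 9 of them on the strand of the peak, 4 snoRNAs and 1 snRNA. Of 940 long peaks 30 enclosed a small RNA and of 1672 short peaks none did, but enclosure depends on peak length, by which the classes were made. The hairpin of miR-26b (chr2:218402646-218402722) lies in CTDSP1, a phosphatase of the RNA polymerase II C-terminal domain, within a peak at chr2:218402143-218403104 (fold 1.53). The miR-1908 hairpin (chr11:61815161-61815240) lies in FADS1, a fatty acid desaturase, within a peak at chr11:61814898-61816380 (fold 2.25). Other hairpins were MIR6514 in NXF1, the mRNA export receptor (fold 1.56), MIR7113 in NDUFS8, a complex I subunit (1.64), MIR6800 in MED25, a Mediator subunit (1.52), MIR378I in TNFRSF13C, the BAFF receptor (1.98), MIR10523 in ERGIC1 (1.95) and, on the opposite strand to its peak, MIR3613 in DLEU2 (1.53). The enclosed snoRNAs were SNORD49A in SNHG29, SNORD88B in C19orf48P, SNORA36C in AAK1 and SNORD84 in DDX39B, and the snRNA was RNU2-2 beside WDR74. The peaks were not read as coming from the small RNAs, since the list does not separate them from their hosts.

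The host genes did not move as a group. CTDSP1 had 18.5, 18.5 and 19.1 RPKM in the shDHX15-1 libraries and 17.4, 16.4 and 17.0 RPKM with shDHX15-2, against 10.8, 10.6 and 10.8 RPKM with shGFP. Every hairpin library was above every shGFP library, and the log2 rise was 0.75 ± 0.0261 (SE, limma adjusted p = 2.59e-08) for shDHX15-1 and 0.62 ± 0.0261 (adjusted p = 1.5e-07) for shDHX15-2. With ciclopirox CTDSP1 had 3528, 3704 and 3457 normalised counts, against 1884, 1612 and 1540 with DMSO (log2 difference 1.09 ± 0.103, limma adjusted p = 1.38e-05). FADS1 went the other way with the hairpins, with means of 15.2 ± 0.0558 and 15.9 ± 0.0529 RPKM for shDHX15-1 and shDHX15-2, against 22.5 ± 0.704 RPKM for shGFP (SD, n = 3 each), and it fell by 0.54 and 0.47 (limma adjusted p = 1.04e-07 and 4.52e-07). GOLGA8A averaged 38.9 ± 0.834 and 22.0 ± 0.617 RPKM with shDHX15-1 and shDHX15-2, against 15.0 ± 0.536 RPKM with shGFP (SD, n = 3 each), but its reads can be shared with GOLGA8B, so the split between the pair is uncertain.

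Medium peaks had a median length of 614 bp (quartiles 328.25 and 1126.75 bp) and a median fold enrichment of 1.63 (quartiles 1.55 and 1.80). The list as deposited held no peak with a fold under 1.5 or an FDR above 0.025, and the median FDR of the medium peaks was 0.000612. A fold of at least 2 was reached by 199 medium peaks (12.9%), against 13.3% of short and 13.5% of long peaks, so the strength of enrichment was close across the classes. Length and fold were nearly unrelated within the medium peaks (Spearman rank correlation 0.0415 over 1538 peaks, which are not independent samples). The length limits cut no gap in the list: the members nearest to the lower limit were peaks in TMEM254 (200 bp, fold 1.96), TRPV1 with SHPK (201 bp, 1.60) and SLC25A42 (201 bp, 1.63), and the nearest peaks outside it were in NUDT16L1 (199 bp, 1.75), PPP1R37 (199 bp, 1.69) and SASH1 (199 bp, 1.65). At the upper limit the nearest members were in WNT8B (fold 1.61), INTS11 (1990 bp, 2.39) and FCSK (1989 bp, 1.57), and the nearest peaks outside it in INTS9 (2003 bp, 1.62), KCTD11 (2013 bp, 1.67) and FANCA (2014 bp, 1.79).

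The medium lengths were of 2 kinds. A length of 1 more than a multiple of 25 bp was found in 550 medium peaks (35.8%), against 95.5% of short and 3.83% of long peaks. These stepped peaks were mostly the shorter members, with a median of 351 bp and 205 of the 288 peaks of under 300 bp, while the other 988 medium peaks had a median of 876 bp. Their fold enrichment had the same median, 1.63 in each kind. Position differed with the kind: 34.9% of the stepped peaks on the strand of a gene were centred in its last 10%, against 15.4% of the other medium peaks, and 19.2% were centred in its first 10%, against 17.1%. A shorter peak can be centred nearer to a gene end, and the part of length in this difference was not tested.

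**Figure D1:**
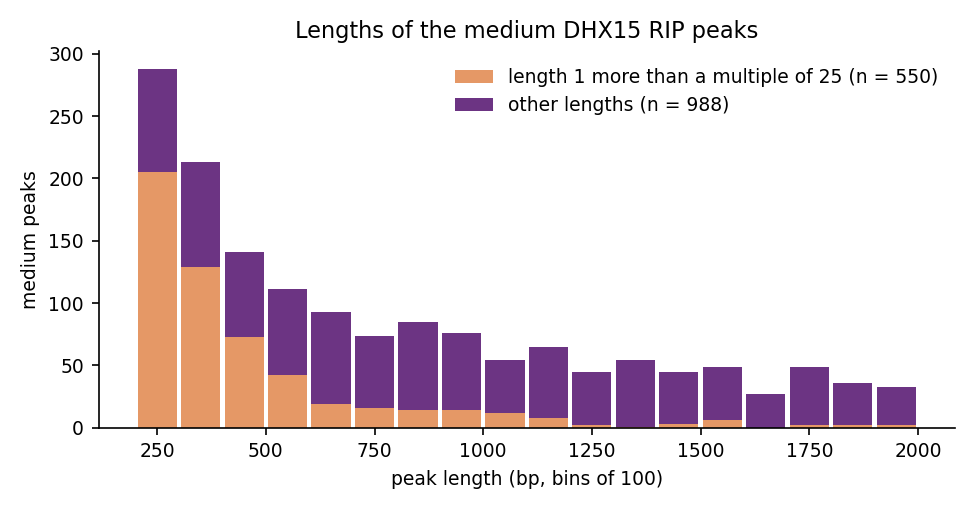
Number of medium peaks in each 100 bp range of length (x axis, bp), with peaks whose length is 1 more than a multiple of 25 bp stacked with peaks of other lengths. Under 300 bp the stepped lengths make up 205 peaks and the others 83, and from 600 bp on the stepped lengths are the smaller share in every range.

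Of the 1275 medium peaks in a gene whose strand the annotation table gives, 1189 (93.3%) were on the strand of such a gene and 86 were on the opposite strand only, against 92.2% on the gene's strand among short peaks and 97.4% among long peaks. The other 263 medium peaks lay in genes with no strand in the table. A single gene span held 1305 of the peaks, and 233 lay in 2 or more overlapping spans, where the peak cannot be assigned to 1 gene.

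Along the gene, the same-strand medium peaks gathered at both ends, and at the 3′ end more than at the 5′ end. With the gene span cut into 10 equal bins, the last bin held the centres of 265 peaks (22.3%) and the first bin those of 212 (17.8%), while the bins between them held 5.80% to 10.7% each. Short peaks had the same pattern with a stronger 3′ end (29.9% in the last bin, 18.6% in the first), and long peaks had neither (10.6% and 5.16%). All these peaks lie wholly inside a gene span, so the centre of a longer peak is kept further from both gene ends. The median length was 76 bp for short and 4744.5 bp for long peaks, so the difference between classes follows in part from how peaks were chosen. Very few medium peaks sat exactly at a boundary: 54 (4.54%) began within 50 bases of the gene start and 24 (2.02%) ended within 50 bases of the gene end. Peaks that cross the boundary of a gene are not counted in that gene. The median distance was 8217 bases from the gene start to the nearer edge of the peak, and 5378 bases from the other edge to the gene end. Exons and introns were not assigned, because the tables used here give gene spans only.

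**Figure D2:**
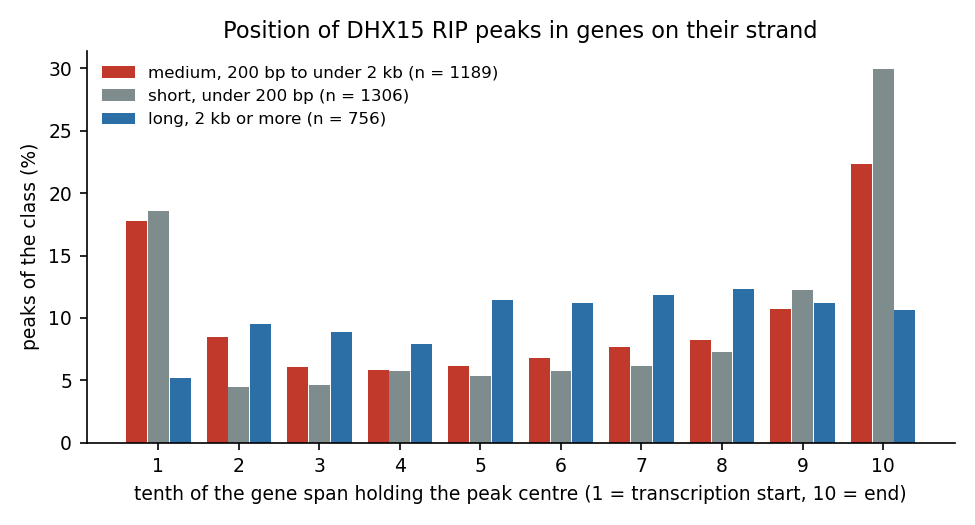
Share of peaks (y axis, percent) centred in each of 10 equal bins of the gene span from 5′ to 3′ (x axis), for medium, short and long peaks on the strand of their gene. Medium peaks reach 17.8% in the first and 22.3% in the last bin, short peaks 18.6% and 29.9%, and long peaks 5.16% and 10.6%.

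Chromosomes 11, 16, 17 and 19 together carried 584 medium peaks (38.0%), while 24.3% of the genes tested in the hairpin experiment lie on them. These chromosomes were picked because their share of medium peaks exceeded their share of tested genes by more than 2 percentage points. The excess of their sum therefore follows from the choice, and it sets a share of peaks beside a share of genes. Most genes held 1 medium peak (1142 genes), 186 held 2 and 77 held 3 or more. No short or long peak lay in 857 of the 1405 genes, whereas 379 also held a short peak, 249 a long peak and 80 both.

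The highest fold enrichment among the medium peaks was 6.97, at ANKRD42-DT, a lncRNA gene transcribed divergently from ANKRD42 (chr11:83191130-83191455, minus strand). Next was CCR7, the chemokine receptor that guides T cells to lymph nodes, at 5.18 (chr17:40554993-40555268). MYO9B, an unconventional myosin, held a peak of fold 4.57 on the opposite strand (chr19:17177510-17178476). LTV1, a factor in assembly of the small ribosomal subunit, followed at 3.95 near the end of its gene (chr6:143863260-143863590), then RAB24, a small GTPase, at 3.6, PFN1, the actin-binding profilin, at 3.55 and a peak shared by the overlapping genes RPL15 and NKIRAS1 at 3.39. The remaining peaks of the 12 strongest were in S100PBP (3.36, opposite strand), RHBDL1 (3.35), PPP2R2D, a regulatory subunit of protein phosphatase 2A (3.29), the serine protease gene PRSS27 (3.28) and GFRA4, a receptor of the GDNF family (3.18).

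These genes gave no common response. MYO9B, S100PBP, RHBDL1 and PPP2R2D were called higher with both hairpins and with ciclopirox, and RAB24 with both hairpins. LTV1 and PFN1 were called lower with both hairpins, and LTV1 also with ciclopirox. The PPP2R2D ciclopirox call (limma adjusted p = 0.0319) was lost under 5 alternatives. PRSS27, not tested with the hairpins, was called higher with ciclopirox at low counts (14.5, 6.96 and 20.5 with DMSO). CCR7 was at 5.61, 5.48 and 5.91 RPKM with shDHX15-1 and at 3.47, 3.69 and 3.51 RPKM with shDHX15-2, against 4.55, 4.78 and 4.45 RPKM with shGFP, so the hairpins lay on either side of the control. The log2 changes were 0.25 ± 0.0382 (SE, limma adjusted p = 0.000257) and -0.29 ± 0.0382 (adjusted p = 0.000133). With ciclopirox CCR7 had 918, 1173 and 998 normalised counts, against 310.1, 305 and 268 with DMSO, a rise of 1.80 ± 0.135 (limma adjusted p = 3e-06). ANKRD42-DT was at 661, 385 and 593 normalised counts with ciclopirox and at 528, 756 and 744 with DMSO, ranges that overlap. PFN1 had 633, 591 and 613 RPKM with shDHX15-1 and 654, 629.9 and 634 RPKM with shDHX15-2, against 714, 716 and 721 RPKM with shGFP. It fell by 0.23 with shDHX15-1 and fell by 0.17 with shDHX15-2 (limma adjusted p = 4.5e-05 and 0.000478). RPL15 was at 32193, 34206 and 29422 normalised counts with ciclopirox and at 39537, 31886 and 32015 with DMSO, and NKIRAS1, on the other strand of the same region, had nearly the same counts in every library there, which the missing strand setting of the counting leaves inseparable.

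PKD1, which encodes polycystin-1, held 7 medium peaks, the highest number for any gene, 6 of them on its own strand, together with 3 short peaks and 1 long peak. DNHD1, a dynein heavy-chain family gene, and FBXO41, an F-box gene, held 6 each. TOP3B, a topoisomerase that acts on DNA and RNA, held 5, of which 1 was on its own strand, and NISCH, the mechanically gated channel gene PIEZO1 and GIGYF1, a translational repressor, held 5 each. PPP2R2D, GOLGA8B and LOC102723945 held 4 each. PKD1 stood at 12.6, 12.4 and 12.5 RPKM with shDHX15-1 and 10.5, 10.8 and 10.5 RPKM with shDHX15-2, against 7.68, 7.32 and 8.21 RPKM with shGFP. It rose by 0.63 ± 0.0359 and 0.41 ± 0.0359 on the log2 scale (SE, limma adjusted p = 4.48e-07 and 1.12e-05), but pseudogene copies of PKD1 on the same chromosome can share its reads. GIGYF1 rose with both hairpins (0.76 and 0.49, limma adjusted p = 1.46e-07 and 3.82e-06) and with ciclopirox (0.55, adjusted p = 0.000443). DNHD1 fell with both hairpins (by 0.13 and 0.24, limma adjusted p = 0.0223 and 0.00113) and with ciclopirox (by 0.58, adjusted p = 0.00187), and its shDHX15-1 call was lost without shGFP replicate 3 (0.0689) or shDHX15-1 replicate 1 (0.055).

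A larger share of the genes with a medium peak rose, and a smaller share fell, than of genes of like expression without a peak, in both experiments. Of 1226 such genes tested with the hairpins, 482 (39.3%, 95% Wilson interval 36.6% to 42.1%) were called higher with both hairpins and 214 (17.5%, 15.4% to 19.7%) lower with both, where a call is a limma adjusted p under 0.05 over all 15022 genes tested. All tested genes were called higher with both in 28.8% and lower with both in 20.4%. Tested genes without any peak, weighted to the expression of the medium-peak genes in shGFP libraries, were called higher in 27.5% and lower in 23.2%. The shift was small per gene: the median log2 change, averaged over the hairpins, was 0.11 for medium-peak genes, against 0.02 for the matched genes and 0.06 for all. The differences between shares were not tested, since genes are not replicates of a condition. Both hairpins share the 3 shGFP libraries. Centring each library on its median moved the split of medium-peak genes to 396 higher and 291 lower (32.3% and 23.7%), against 20.2% and 30.5% of the matched genes.

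By hairpin, shDHX15-1 gave 728 rises (59.4%, against 45.4% of all tested genes) and 275 falls (22.4%, against 28.9%) among the medium-peak genes. With shDHX15-2 there were 530 rises (43.2%, against 35.6%) and 356 falls (29.0%, against 30.1%). Median-centred libraries gave 566 rises (46.2%, against 33.7% of all tested genes) and 387 falls (31.6%, against 39.5%) with shDHX15-1. The share of falls with shDHX15-2 was close to that of all tested genes.

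With ciclopirox, 511 of 1262 medium-peak genes rose (40.5%, interval 37.8% to 43.2%) and 222 fell (17.6%, 15.6% to 19.8%), where 23.5% of all 16825 genes tested rose and 25.0% fell. Expression-matched genes without a peak rose in 19.0% and fell in 32.9%. The median log2 change was 0.17 for the medium-peak genes, against -0.08 for the matched genes and -0.02 for all. Without DMSO replicate 1, 594 medium-peak genes rose (47.1%, against 26.6% of all tested genes) and 230 fell (18.2%, against 27.2%).

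**Figure D3:**
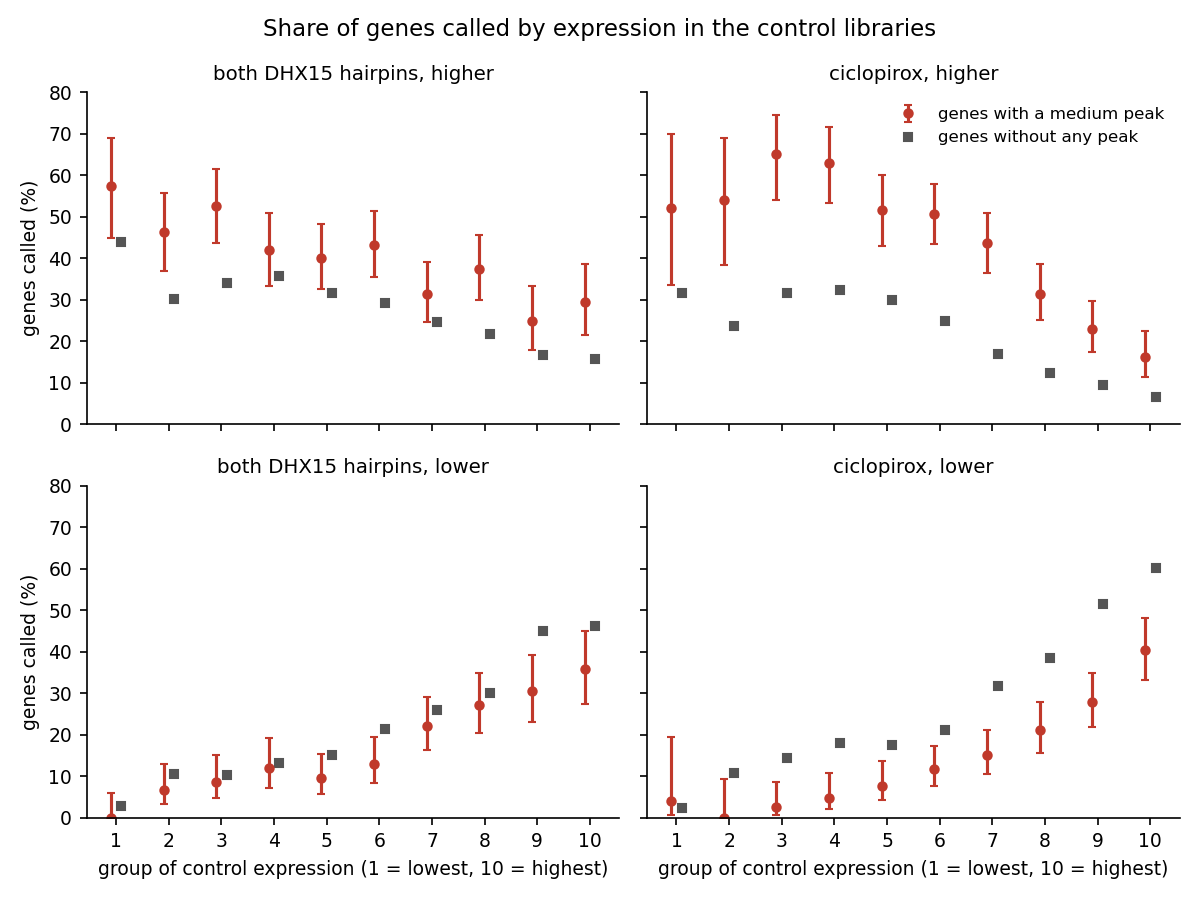
Percent of genes called (y axis) in 10 groups of tested genes by level in the control libraries (x axis, low to high), for genes with a medium peak and genes without any peak, with both hairpins in the same direction and with ciclopirox, with 95% Wilson intervals, which cover counting error only, as bars on the medium-peak points. Medium-peak genes are above the genes without a peak in 10 of 10 groups for rises in each experiment, in 0 of 10 for falls with both hairpins and in 1 of 10 for falls with ciclopirox. The lowest group includes genes under the filter in the control libraries, where rises are favoured.

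Medium-peak genes were expressed at somewhat higher levels than the rest. Their median control level was 7.81 RPKM, against 7.28 RPKM in tested genes without a peak, and 1366 normalised counts, against 839 in the ciclopirox table. The larger share of rises was seen in each of the 10 expression groups of both experiments. In the lowest group control levels reached down to 0.0333 RPKM and 0 normalised counts, under the filters. Such genes were tested only because the hairpin or ciclopirox libraries were high, which favours rises in that group. Genes without a peak there were higher with both hairpins in 43.9% and lower in 2.76%. Matching on gene span as well left the shares of the matched genes at 27.8% higher and 23.3% lower with both hairpins, and at 18.7% and 33.6% with ciclopirox.

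Genes with 2 or more medium peaks rose in 118 of 245 cases with both hairpins (48.2%) and in 109 of 238 cases with ciclopirox (45.8%), against 37.1% and 39.3% of genes with 1 medium peak. Genes holding medium peaks and no other class rose in 35.3% and 36.8%. Across classes, with both hairpins and with ciclopirox, genes with a short peak rose in 33.5% and 31.3% and genes with a long peak in 45.6% and 43.5%, on either side of the medium-peak genes, but a gene can belong to several classes. By position in the gene, the shares with the hairpins were close: genes rose with both in 37.7% where a medium peak was in the first bin of the gene, 40.1% where it was between the end bins and 37.6% where it was in the last bin. With ciclopirox the same sets rose in 32.3%, 40.3% and 42.6%. The sets differ in expression, with median shGFP levels of 10.1, 8.22 and 6.66 RPKM. Genes without a peak matched to their expression rose in 25.1%, 27.4% and 28.5% with both hairpins and in 16.4%, 18.8% and 19.4% with ciclopirox. None of these differences between sets was tested.

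Of the 1159 medium-peak genes tested in both experiments, 257 (22.2%) were higher in both, against 9.57% of the 8294 genes without a peak, and 101 (8.71%) were lower in both, against 14.7%. Opposite calls were made for 31 medium-peak genes higher with both hairpins and lower with ciclopirox (2.67%, against 4.17% of the genes without a peak) and for 20 the reverse (1.73%, against 1.45%, a share close to that of the genes without a peak). No call in either experiment was made for 246 (21.2%), against 25.1% of the genes without a peak.

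Medium-peak genes called the same way with both hairpins and averaging at least 1 RPKM were ranked by the smaller of their 2 changes. The 10 largest rises by this rank were ANTKMT, PDZD4, TSPOAP1, KCNAB2, ASMTL-AS1, PIK3R6, ARHGAP33, CCDC88B, TRAF1 and FGF11. ANTKMT, a mitochondrial lysine methyltransferase with a peak at chr16:721808-722425, had 3.85, 3.21 and 3.46 RPKM with shDHX15-1 and 5.20, 4.40 and 4.10 RPKM with shDHX15-2, against 0.804, 0.85 and 0.996 RPKM with shGFP. No hairpin library overlapped the shGFP range, and the rises were 1.26 ± 0.0811 and 1.56 ± 0.0811 (SE, limma adjusted p = 9.51e-07 and 5.03e-07). All shGFP values of ANTKMT were under the filter of 1 RPKM, so it was tested only because the hairpin libraries were high. TSPOAP1, a binding partner of the mitochondrial translocator protein with 4 medium peaks, had 17.7, 17.4 and 18.2 RPKM with shDHX15-1 and 9.39, 9.63 and 9.68 RPKM with shDHX15-2, against 3.81, 3.69 and 4.02 RPKM with shGFP. It rose by 1.95 with shDHX15-1 and by 1.13 with shDHX15-2, and it also rose with ciclopirox (1.83, limma adjusted p = 4.71e-07). KCNAB2, a potassium channel beta subunit, reached 35.2, 33.4 and 34.9 RPKM with shDHX15-1 and 35.5, 35.6 and 36.0 RPKM with shDHX15-2, against 16.2, 16.9 and 16.8 RPKM with shGFP.

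PDZD4 rose by 1.73 with shDHX15-1 and 1.16 with shDHX15-2, and PIK3R6, a regulatory subunit of PI3K gamma, by 1.33 and 0.97. ARHGAP33, a GTPase-activating protein, rose by 1.38 and 0.91, CCDC88B, a regulator of T-cell activation, by 0.91 and 0.96, and TRAF1, an adaptor of TNF receptors, by 1.08 and 0.86. TRAF1 was also under 1 RPKM in every shGFP library and was tested only through the hairpin libraries. ASMTL-AS1 rose by 1.52 and 0.98 but overlaps ASMTL in antisense, and FGF11 rose by 1.60 and 0.86. PDZD4, PIK3R6, ARHGAP33, CCDC88B and TRAF1 also rose with ciclopirox, by 0.94 (CCDC88B) to 2.14 (TRAF1). KCNAB2 stood at 10800.4, 11718 and 10454 normalised counts with ciclopirox and at 11499.8, 9731 and 9287 with DMSO, which overlap.

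Among the falls, EGR1 and FOS, immediate-early transcription factors, stood far from the other medium-peak genes. EGR1, with 2 medium peaks (the stronger at chr5:138465989-138466902, fold 1.96), had 1.63, 1.26 and 1.32 RPKM with shDHX15-1 and 1.61, 1.37 and 1.30 RPKM with shDHX15-2, against 97.9, 89.4 and 92.3 RPKM with shGFP. The log2 changes were -5.29 ± 0.0679 and -5.28 ± 0.0679 (SE, limma adjusted p = 1.06e-10 and 2.35e-10). With ciclopirox it went the other way, at 1717, 2028 and 1841 normalised counts, against 550.2, 487 and 436 with DMSO, a rise of 1.92 ± 0.123 (adjusted p = 1.16e-06).

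FOS (peak at chr14:75278973-75279717, fold 2.02) had 0.237, 0.288 and 0.266 RPKM with shDHX15-1 and 0.155, 0.179 and 0.160 RPKM with shDHX15-2, against 7.85, 7.64 and 7.63 RPKM with shGFP. FOS was under 1 RPKM in every hairpin library and was tested only through the shGFP libraries. With ciclopirox it had 183, 287 and 231 normalised counts, against 25.3, 24.8 and 13.3 with DMSO, a rise of 3.44 ± 0.300 (limma adjusted p = 8.17e-06). Both genes thus belong to the 20 medium-peak genes called lower with the hairpins and higher with ciclopirox, and so does MVD, mevalonate diphosphate decarboxylase of the cholesterol pathway. MVD fell by 0.59 and 0.57 with the hairpins and rose by 0.73 with ciclopirox (limma adjusted p = 4.31e-07, 1.05e-06 and 0.000894).

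The other falls were smaller. SLC27A4, a fatty acid transporter, fell by 1.05 with shDHX15-1 and 0.76 with shDHX15-2, and MFSD2A, a lysophosphatidylcholine transporter, by 0.80 and 0.69. FDFT1, squalene synthase, had 36.5, 35.7 and 35.1 RPKM with shDHX15-1 and 44.2, 44.0 and 44.8 RPKM with shDHX15-2, against 64.2, 64.7 and 64.2 RPKM with shGFP. AVPR2, a vasopressin receptor, fell by 0.74 and 0.78, CPVL, a carboxypeptidase whose peak lies on the opposite strand, by 0.70 and 0.73, CLPTM1L by 0.62 and 0.72, and IFRD2, a factor that binds inactive ribosomes, by 0.72 and 0.70.

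**Figure D4:**
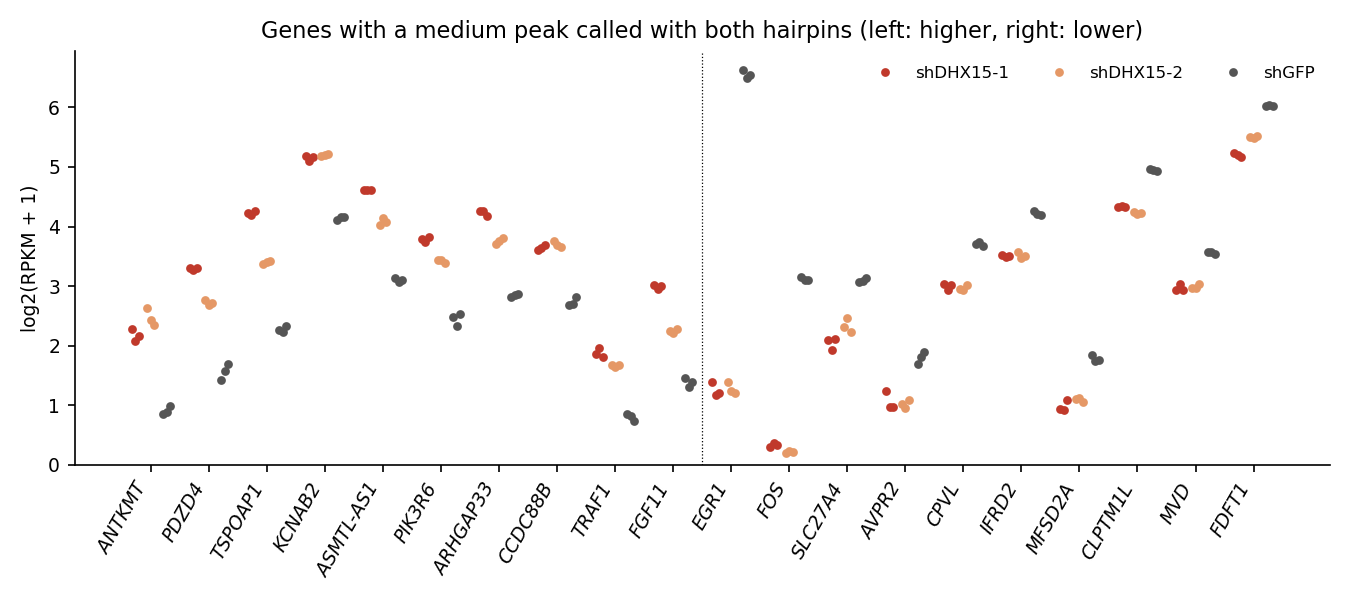
Level on the log2(RPKM + 1) scale (y axis) in each library of the shDHX15-1, shDHX15-2 and shGFP groups for medium-peak genes called with both hairpins. The genes are the largest rises and falls by the smaller of the 2 hairpin changes, among those averaging at least 1 RPKM. EGR1 lies between 1.26 and 1.63 RPKM in the hairpin libraries, against 89.4 to 97.9 RPKM with shGFP.

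Ciclopirox changes were ranked among medium-peak genes averaging at least 100 normalised counts, which leaves out lower genes such as PRSS27. The largest rise among them was at PFKFB4, which makes and breaks down the glycolytic activator fructose 2,6-bisphosphate (peak at chr3:48523749-48525583, fold 1.63). It had 2545, 2554 and 2329 normalised counts with ciclopirox, against 113, 124 and 105 with DMSO, a rise of 4.43 ± 0.123 (SE, limma adjusted p = 6.15e-09). With shDHX15-1 it had 10.5, 11.1 and 10.7 RPKM, against 3.24, 3.37 and 3.04 RPKM with shGFP, while the shDHX15-2 libraries, at 3.39, 3.72 and 3.48 RPKM, did not pass the test (adjusted p = 0.0548). Its paralogue PFKFB3 had 7012, 7376 and 6930.2 normalised counts with ciclopirox, against 1374, 1358 and 1296 with DMSO (rise of 2.40), and rose with both hairpins (1.5 and 0.70).

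FDXR, the reductase that supplies electrons to mitochondrial ferredoxins, had 5299.9, 5813 and 4778 normalised counts with ciclopirox, against 1119.7, 988 and 919 with DMSO (rise of 2.39 ± 0.112, limma adjusted p = 1.35e-07). The glutamine transporter SLC38A3 rose by 2.72, NDRG4 by 2.54, the orphan receptor GPR153 by 2.53, the kinase SPEG by 2.51, the G-protein subunit GNAO1 by 2.28 and the creatine kinase CKB by 2.19. SLC38A3, NDRG4, PFKFB3 and FDXR were also higher with both hairpins, and GPR153 was not called with either. CKB was called higher with both too, but its shDHX15-2 call (limma adjusted p = 0.041) was lost under 9 alternatives, among them without shDHX15-2 replicate 1 (0.129) and without shGFP replicate 2 (0.132). SLC38A3 and NDRG4 were under 1 RPKM in every shGFP library and were tested with the hairpins only because the hairpin libraries were higher.

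The largest ciclopirox fall among the medium-peak genes averaging at least 100 normalised counts was at LTV1. LTV1 had 92.7, 92.7 and 125 normalised counts with ciclopirox, against 325, 529 and 526 with DMSO, a fall of 2.12 ± 0.219 (SE, limma adjusted p = 2.55e-05). It fell by 1.18 and 0.41 with the hairpins. Its DMSO counts were under the median of all tested genes (678.5), while its shGFP level (29.0, 30.6 and 29.8 RPKM) was above theirs (6.71 RPKM). The reason for this difference between the experiments was not tested. DDX10, a helicase of ribosome assembly with a peak near the end of its gene (chr11:108940591-108940841), fell by 1.78 with ciclopirox and by 0.64 and 0.40 with the hairpins. GNL3, the nucleolar GTPase nucleostemin, fell by 1.37, IFRD2 by 1.43 and EIF4G1, the scaffold of the cap-binding complex, by 1.24.

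CCT5, a subunit of the cytosolic chaperonin whose peak had a fold of 3.06 (chr5:10250395-10250811), had 8178, 8599 and 7886 normalised counts with ciclopirox, against 24507, 21411 and 21041 with DMSO, and fell by 1.44 (limma adjusted p = 9.9e-07). PSRC1, a microtubule-associated protein, fell by 1.71, ODC1, which starts polyamine synthesis, by 1.27 and the splicing factor RBM25 by 1.23. PSRC1 and RBM25 were higher with both hairpins. GGPS1, geranylgeranyl diphosphate synthase, had 31.5, 109 and 76.7 normalised counts with ciclopirox, against 92.9, 225 and 244 with DMSO. Its groups overlap, and the fall of 1.41 (limma adjusted p = 0.0243) was lost without DMSO replicate 2 (0.0684), DMSO replicate 3 (0.0692) or ciclopirox replicate 1 (0.107).

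**Figure D5:**
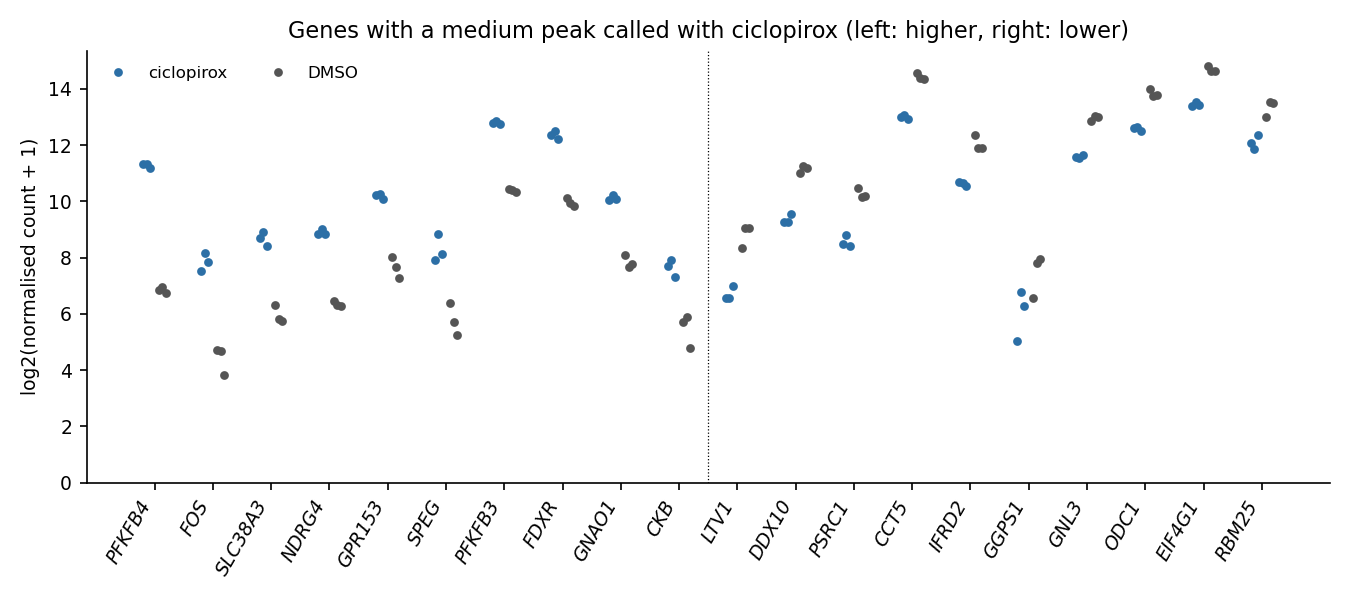
Level on the log2(normalised count + 1) scale (y axis) in each ciclopirox and DMSO library for the medium-peak genes that rose and fell most with ciclopirox. Only genes averaging at least 100 normalised counts were ranked. PFKFB4 lies at 2329 to 2554 normalised counts with ciclopirox, against 105 to 124 with DMSO, and the GGPS1 groups overlap.

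Over 14 lists of genes, the share of tested members that held a medium peak ran between 2.70% and 28.6%, set beside 10.2% of all tested genes. The calls of holders below are to be read against all tested genes, of which 28.8% were higher and 20.4% lower with both hairpins, and 23.5% higher and 25.0% lower with ciclopirox, and against all tested members of each list. Among SR and hnRNP splicing regulators 9 of 34 tested members held a medium peak (26.5%), led by SRRM2, a scaffold of nuclear speckles (fold 2.41), and the splicing activator SRSF1 (2.00), then HNRNPDL and SRSF7. Of these 9, 2 were called higher with both hairpins (HNRNPDL and RBM5) and 3 lower, SRSF1 (by 0.42 and 0.27), HNRNPA2B1 (by 0.36 and 0.22) and PTBP1. PTBP1 fell by 0.22 and 0.04, and its shDHX15-2 call was barely under the threshold (limma adjusted p = 0.0499). The HNRNPDL rise with shDHX15-1 was 0.11 and was lost with edgeR (adjusted p = 0.395), with DESeq2 (0.61) and with median-centred libraries (0.915). Over the whole list 7 of 34 were higher and 13 lower with both hairpins. With ciclopirox 1 of 8 holders rose and 4 fell, and over the list 1 of 33 rose and 24 fell. The splicing kinases CLK1 and CLK2, which phosphorylate SR proteins, were the holders among 7 tested members of their list, and both rose with both hairpins (CLK1 by 1.02 and 0.85, CLK2 by 0.39 and 0.42), as did 5 of the 7 in all.

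Core spliceosome proteins held few, PRPF31 and SF1 among 32 tested (6.25%), and PRPF31, whose peak is on the opposite strand, fell with both hairpins (by 0.54 and 0.44), as did 21 of the 32 in all. Among 15 DEAH-box helicases 2 held a medium peak (13.3%), DHX38 and DHX34, neither called the same way with both hairpins, beside 8 of the 15 lower and none higher. Among 23 G-patch proteins 5 did (21.7%), with SUGP1, a splicing factor, at a fold of 2.07. RBM5, also a splicing factor and with its peak on the opposite strand, was the holder that rose with both hairpins (0.75 and 0.49). Of the other holders, 1 was lower with both, beside 6 higher and 5 lower of the 23 in all. Cytosolic ribosomal proteins (1 of 37, RPL15) and ribosome biogenesis factors (1 of 37, DDX10) held 2.70% each, the lowest shares of the 14 lists, and were expressed at medians of 244.1 and 22.9 RPKM in shGFP libraries. Of the 37 ribosome biogenesis factors 33 were lower with both hairpins, and of 36 tested with ciclopirox 36 were lower.

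DNA repair and checkpoint genes had the largest number of holders, 12 of 45 (26.7%), of which 6 were called higher with both hairpins and 4 lower, beside 21 of 45 higher and 7 lower over the whole list. RAD52, a recombination mediator, rose (0.56 and 0.46), as did FANCG (0.54 and 0.36) and FANCA (0.54 and 0.22), members of the Fanconi anemia core complex, and POLE, the leading-strand polymerase (0.47 and 0.17). RECQL4, a DNA helicase, was also called higher. NTHL1, a base excision glycosylase, fell by 0.65 and 0.45, and CHEK1, the checkpoint kinase, by 0.28 and 0.14. With ciclopirox 5 of the 12 rose, FANCG the most (0.94), beside 16 of 43 over the list, and NTHL1 fell by 0.97.

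Among 33 T-cell receptor signalling genes 5 held a medium peak (15.2%). The adaptor LAT, whose peak is on the opposite strand, and DGKA, a diacylglycerol kinase, rose with both hairpins (LAT by 0.43 and 0.12, DGKA by 0.42 and 0.33). The remaining call, a rise of IKBKB, an NF-kB kinase, of 0.09 with shDHX15-2 (limma adjusted p = 0.0397), was lost under 7 alternatives, among them without shGFP replicate 1 (0.132). Over the list 13 of 33 were higher and 6 lower with both hairpins. All 4 holders tested with ciclopirox rose, beside 10 of 33 over the list, among them PTPN22, a phosphatase that restrains receptor signalling (0.90). In mTORC1 and amino acid sensing 9 of 37 held one (24.3%), led by RPTOR (fold 2.11), the scaffold of mTORC1, and AKT1S1, an mTORC1 inhibitor, fell by 0.45 and 0.59. Of the 9, 1 was higher and 2 lower with both hairpins, beside 11 and 8 of the 37.

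Chromatin regulators counted 9 holders of 49 (18.4%), led by the histone methyltransferases SETD1B (fold 2.65) and DOT1L (2.29), with 1 higher and 2 lower with both hairpins, beside 17 and 7 of the 49. SETD1B fell by 0.15 and 0.18 with the hairpins and by 0.88 with ciclopirox. Of 22 NOTCH receptor, cofactor and target genes 3 held one (13.6%). LFNG, a glycosyltransferase of NOTCH receptors, rose (0.47 and 0.94, and 1.87 with ciclopirox), and MFNG, of the same family, fell (by 0.85 and 0.24, and by 0.76 with ciclopirox), beside 7 of the 22 higher and 5 lower with both hairpins. Of 18 amino acid transporters 2 held one (11.1%), SLC25A22 and SLC7A6, both lower with both hairpins, as were 12 of the 18 in all, with none higher. Of 21 snoRNA host and nuclear lncRNA genes 3 held one (14.3%), none called the same way with both hairpins.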

How the data were processed

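The deposited values were taken as the authors made them. Per the file headers, the peak list gives for each peak a fold enrichment ratio, a p-value with an FDR, and a score, which equals minus log2 of the deposited FDR for all 4499 peaks within 0.1%. The peak caller, the libraries compared and any pooling are not stated in the sources used here, and the header names no build. Positions were placed in RefSeq GRCh38.p14 gene spans. Per the labels, RNA-seq was poly(A)+ with paired reads. Per the submitters' processing notes, FastQC 0.11.9, STAR 2.4.1.7 and 2.7.5c and DESeq2 1.32.0 were used. The hairpin table holds RPKM computed by the authors, and the ciclopirox table holds normalised signal values, counts divided by 1 size factor per library by the authors. The log2 fold changes and p-values that the authors deposited beside them were not used. The strand setting of the counting is not given, so overlapping and antisense genes are uncertain.

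Genes with at least 1 RPKM, or 10 normalised counts, in at least 3 libraries were tested with limma 3.58.1 (R 4.3.3, trend) on log2(value + 1), two-sided, with Benjamini-Hochberg adjustment over all genes tested, and called at an adjusted p under 0.05. Replicate numbers of the ciclopirox libraries are those that end the column names of its table. The hairpin fit covered 9 libraries and the ciclopirox fit 6. Fold changes on this scale understate those of low genes. Expression-matched shares weight genes without any peak over 10 groups by level in shGFP or DMSO. Whole reads were recovered in 19747 of 19748 hairpin genes (tolerance 0.0001 reads) and in 100% of ciclopirox values (tolerance 0.01 reads) for edgeR 4.0.16 and DESeq2 1.42.0 fits. Wilson intervals cover counting error only. Scripts were tested on simulated data. Members and gene lists were chosen with earlier results of these data known. Named genes were the 12 peaks of highest fold, the 10 genes with most medium peaks and up to 4 holders of highest fold per list. The 10 largest called rises and falls with both hairpins, ranked by the smaller change at a mean of at least 1 RPKM, were also named. So were those with ciclopirox at a mean of at least 100 normalised counts. Other list members and small-RNA hosts were named after their values were seen. Alternatives were another pseudocount, other filters, count tools, median centring, a replicate block, other length and fold limits, and leaving out each library. One member of a gene list is not reported here by name.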

Additional observations from a re-analysis of the deposited data

How the results depend on the processing

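Over the alternatives run, 137 of 138 alternative values of the main counts and shares stayed within the limits set for them. These limits were wide, and sizeable moves counted as within them. With median-centred libraries the falls with both hairpins went from 214 to 291. With shDHX15-1 the falls went from 275 to 387 and the rises from 728 to 566. The value outside its limit was position: among medium peaks of fold at least 2, 19.0% were centred in the last 10% of the gene, against 22.3% of all, and the cause was not tested. Leaving out 1 library at a time gave 452 to 481 medium-peak genes higher and 202 to 209 lower with both hairpins, 708 to 725 and 262 to 273 with shDHX15-1, 493 to 529 and 331 to 351 with shDHX15-2, and 427 to 594 and 166 to 230 with ciclopirox. edgeR on the recovered reads called 457 higher and 284 lower with both hairpins and 532 and 211 with ciclopirox, and DESeq2 442 and 287, and 527 and 234. Fits with the replicate block gave 475 higher and 208 lower with both hairpins, 726 and 269 with shDHX15-1, 522 and 348 with shDHX15-2, and 520 and 236 with ciclopirox. Same-numbered libraries did not all deviate together (correlations of -0.0006 to 0.0951 over 9 hairpin pairs and of -0.1079 to 0.1628 over 3 ciclopirox pairs), so the numbers were taken to name and not to pair the libraries. The match on gene span was chosen after seeing the data. Of the called changes of named genes, 119 of 3660 alternative values were no longer past the threshold and none changed sign. Depth was lower in the ciclopirox experiment than in the hairpin experiment, and DMSO replicate 1 widened the spread of its group.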
